A study of Mus musculus with 24 samples.

Results

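The miR-23, miR-27 and miR-24 miRNAs are cut from 2 paralogous clusters of hairpins, Mir23a, Mir27a and Mir24-2 on mouse chromosome 8 and Mir23b, Mir27b and Mir24-1 on chromosome 13. The 9 mature miRNAs described here were chosen by name from the 1978 mature miRNAs of the count table: mmu-miR-23a-3p, mmu-miR-23b-3p, mmu-miR-27a-3p, mmu-miR-27a-5p, mmu-miR-27b-3p, mmu-miR-27b-5p, mmu-miR-24-3p, mmu-miR-24-1-5p and mmu-miR-24-2-5p, written below without the mouse prefix. Small RNA was sequenced from germ cells of male mice on a C57BL/6J background aged 10 to 15 weeks. The 6 groups were enriched pachytene/diplotene spermatocytes (SP) and round spermatids (RS), each from Ago413+/+, Ago413+/- and Ago413-/- testes, with 4 libraries per group. Ago413-/- mice carry on both copies of the chromosome, and Ago413+/- mice on 1 copy, a constitutive deletion, made with a Sox2-cre deleter line, that removes all of Ago1 and parts of Ago3 and Ago4, so that Ago2 is the Argonaute gene left intact and effects arising in germ cells and in other cells of the testis cannot be told apart. Each cell suspension came from the pooled testes of 2 to 5 mice, and gradient fractions were kept when over 70% of their cells were of the intended type. The study's methods give a higher purity for the round spermatid fractions than for the spermatocyte fractions.

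A miRNA hairpin yields a -5p and a -3p arm. One arm, the guide, is usually retained by an Argonaute protein, while the other, the passenger, is mostly degraded. The guide selects its target messages mainly through its seed, bases 2 to 8 from the 5′ end. The miR-23, miR-27 and miR-24 clusters are expressed in many cell types and are known from vascular endothelium, where they have been studied in vessel growth, and from muscle and immune cells. miR-24-3p is made from both clusters with the same sequence. Its count cannot be divided between them. The 23a and 27a names belong to the chromosome 8 cluster and the 23b and 27b names to the chromosome 13 cluster.

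The mature sequences below, from the RefSeq annotation of GRCm38.p6, are those that separate or join the copies, with the seed in capitals. Sequences were matched by name for 8 of the 9 miRNAs.
miR-23a-3p: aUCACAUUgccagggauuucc
miR-27a-3p: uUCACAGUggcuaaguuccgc
miR-27b-3p: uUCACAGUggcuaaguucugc
miR-24-3p: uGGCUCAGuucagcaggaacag
miR-24-1-5p: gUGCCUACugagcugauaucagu
miR-24-2-5p: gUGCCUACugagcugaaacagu

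miR-27a-3p and miR-27b-3p have the same seed and differ at 1 of their 21 bases, C19U, counted from 1 at the 5′ end with the base of miR-27a-3p first. The seeds of miR-23a-3p and miR-27a-3p differ at 1 base, U7G. The -5p arms miR-24-1-5p and miR-24-2-5p also have 1 seed in common. miR-24-1-5p is 23 bases long against 22 for miR-24-2-5p. Compared base by base without a gap, they differ over the first 22 bases by U17A, U19C, C20A, A21G and G22U. With a gap opposite base 19 of miR-24-1-5p the arms end alike, and U17A is the only substitution left. These arms, unlike miR-24-3p, tell the copies of miR-24 apart. Among the matched sequences only miR-27a-3p and miR-27b-3p had the seed UCACAGU. The seed of miR-24-3p was found in 4 other miRNAs, miR-5124b with 1 count over the 24 libraries and miR-6369, miR-6410 and miR-6413 with 0.

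In GRCm38.p6 the chromosome 8 hairpins lie on the plus strand within 404 bases, at chr8:84208518-84208921. The GENCODE annotation places Mir24-2 over an exon of the long noncoding RNA Gm26532 and gives no other gene at Mir23a or Mir27a. The chromosome 13 hairpins lie on the plus strand within 792 bases, at chr13:63300484-63301275, inside the protein-coding gene 2010111I01Rik, with Mir23b in an intron and Mir27b and Mir24-1 overlapping an exon of at least 1 transcript. All 3 also lie in an intron of Fancc, a DNA repair gene on the other strand.

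Libraries held 182904 to 1072637 miRNA counts. Levels are given in CPM, the count divided by the library total after TMM scaling over the 24 libraries and brought to a common size, with the SD over the 4 libraries of a group. The labels do not say that the libraries of a group came from separate mice, so p-values measure the spread between these libraries, which may be technical. The table holds miRNAs only, so loss of Ago1, Ago3 and Ago4 was not checked here. miR-34b-5p, miR-34c-5p and miR-449a-5p, miRNAs of meiotic and postmeiotic germ cells, had counts in every group, with a summed level of 18751 to 186145 CPM. The lowest sum was in SP Ago413-/- replicate 2, where replicates 1, 3 and 4 of that group had 59058, 61284 and 78881 CPM. In a bulk fraction, fewer cells of a type and less RNA per cell cannot be told apart. Replicate 2 of SP Ago413-/- was the smallest library and stood apart for several of the miRNAs described, and the log2 fold changes from Ago413+/+ and the ratios of the copies in SP Ago413-/- are also given without it.

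The members were moderately abundant and unequal. Together they took 0.612% of the miRNA counts on average, from 0.235% in SP Ago413-/- replicate 2 to 0.793% in SP Ago413+/+ replicate 1, and none was among the 25 most abundant miRNAs. By mean CPM over the 24 libraries miR-27b-3p ranked 51 of 1978 with 3763, miR-24-3p ranked 100 with 844 and miR-23b-3p ranked 103 with 797. The chromosome 8 copies were lower, miR-27a-3p ranking 137 with 385 CPM and miR-23a-3p ranking 176 with 224. miR-24-2-5p followed with 31.3 CPM, and miR-24-1-5p (11.7), miR-27b-5p (10.5) and miR-27a-5p (9.35) were the lowest. miR-27b-3p alone supplied 38.1 to 69.8% of the members' counts. The order miR-27b-3p, then miR-24-3p and miR-23b-3p, then miR-27a-3p and miR-23a-3p was not resolved between all neighbours. For example, in SP Ago413+/+ miR-24-3p stood at 817 ± 80.7 and miR-23b-3p at 866 ± 118 CPM (SD, n = 4), and their ranges overlapped.

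**Figure D1:**
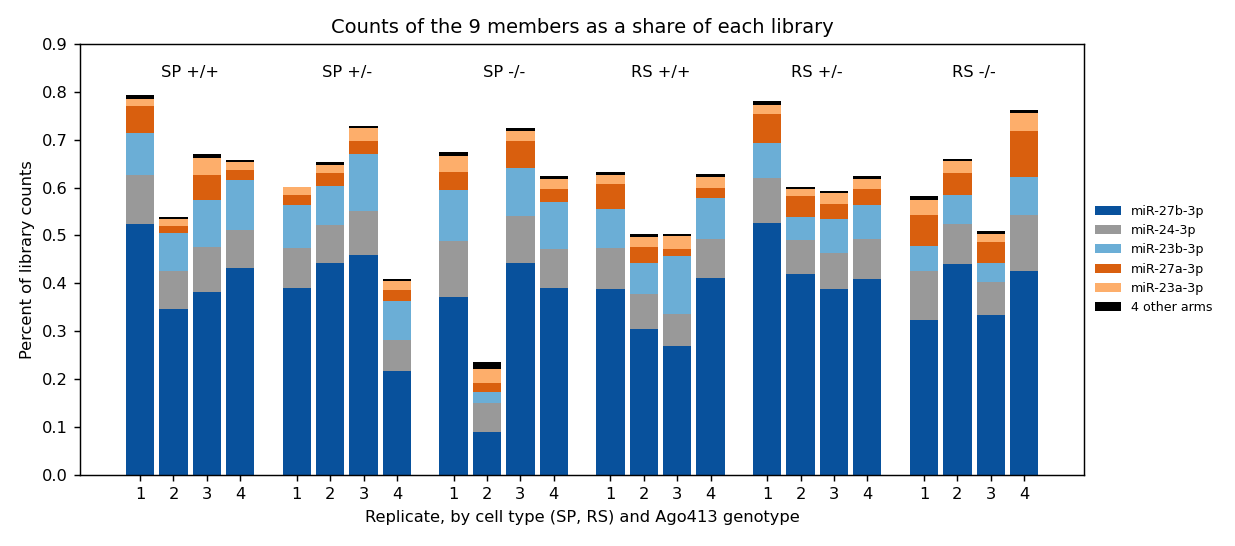
Counts of the 9 members as a percent of each library's miRNA counts, with 1 bar per library grouped by cell type (SP, RS) and Ago413 genotype. miR-27b-3p makes up the largest block in every bar, and SP Ago413-/- replicate 2 has the shortest bar at 0.235%.

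The members' share of a library overlapped between all groups. It was 0.665 ± 0.103% in SP Ago413+/+, 0.598 ± 0.137% in SP Ago413+/- and 0.564 ± 0.223% in SP Ago413-/- (SD, n = 4). In round spermatids it was 0.567 ± 0.0732% in Ago413+/+, 0.650 ± 0.0885% in Ago413+/- and 0.629 ± 0.108% in Ago413-/-.

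Of the 9 members, 6 reached 10 counts in 3 or more libraries of a cell type and were tested in spermatocytes and in round spermatids, namely miR-23a-3p, miR-23b-3p, miR-27a-3p, miR-27b-3p, miR-24-3p and miR-24-2-5p. miR-24-1-5p reached 10 counts in 3 of the 24 libraries and entered only the comparisons between cell types. miR-27b-5p (2 libraries) and miR-27a-5p (1 library) were not tested. Genotypes were compared with edgeR's quasi-likelihood test, and a miRNA was called changed with a Benjamini-Hochberg adjusted p under 0.05 over all miRNAs tested and a log2 fold change of at least 1 in either direction.

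Loss of Ago1, Ago3 and Ago4 in round spermatids came with a higher level of miR-27a-3p, the chromosome 8 guide of the miR-27 pair, while its far more abundant paralogue miR-27b-3p did not pass the test. miR-27a-3p was the only member called, 1 of the 6 tested, a share near the 16.2% of all 426 miRNAs tested. A call for 1 copy and not the other does not show a difference between them. The ratio of miR-27a-3p to miR-27b-3p overlapped between these genotypes. Its level was 493, 325, 176 and 208 CPM in the 4 Ago413+/+ libraries and 702, 518, 536 and 871 CPM in the 4 Ago413-/- libraries. Every Ago413-/- library was above every Ago413+/+ library. The means were 301 ± 143.5 and 657 ± 165 CPM (SD, n = 4), a log2 fold change of 1.25 (SE 0.34, 95% interval 0.53 to 1.98, edgeR adjusted p = 0.0147), where the median of all miRNAs tested was 0.13. The call was lost with library totals in place of TMM (log2 fold change 1.05, edgeR adjusted p = 0.0542), a scaling that moved the median of all miRNAs by -0.23. It was also lost without Ago413+/+ replicate 4 (0.98, edgeR adjusted p = 0.0748), without Ago413-/- replicate 1 (1.11, edgeR adjusted p = 0.0528) and without Ago413-/- replicate 4 (1.06, edgeR adjusted p = 0.0533).

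The labels number the libraries, with replicates 1 and 2 of Ago413+/+ and Ago413-/- numbered up to 60 and replicates 3 and 4 above it, and do not say what the numbers mark. miR-27a-3p was higher in Ago413-/- within each set of numbers, at 702 and 518 CPM against 493 and 325 in the lower set and at 536 and 871 CPM against 176 and 208 in the higher set. With a term for the set the log2 fold change was 1.36 (edgeR adjusted p = 0.0138).

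miR-24-3p, the guide made by both clusters, was the other member whose libraries did not overlap. It stood at 807, 719, 782 and 803 CPM in RS Ago413+/+ and at 1108, 920, 858 and 1059 CPM in RS Ago413-/-, and all 4 of the latter were higher. Its log2 fold change of 0.49 (SE 0.20, 95% interval 0.06 to 0.92) did not pass the test (edgeR adjusted p = 0.0867), and it was 0.28 without Ago413+/+ replicate 2. Of all 426 miRNAs, 23.7% had no overlap between these groups, against 2 of the 6 members.

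For miR-27b-3p the RS libraries held 3647, 2976, 3120 and 4056 CPM in Ago413+/+ and 3505, 4837, 4083 and 3830 CPM in Ago413-/-, and the groups overlapped. The log2 fold change was 0.38 (SE 0.20, 95% interval -0.05 to 0.80, edgeR adjusted p = 0.197), and 0.13 without Ago413+/+ replicate 2. The interval does not show that miR-27b-3p was unaffected. Summed by name, miR-27a-3p and miR-27b-3p had a log2 fold change of 0.41 (SE 0.20, edgeR adjusted p = 0.153 over 332 families), where miR-27b-3p held most of the counts.

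The miR-23 pair had opposite signs in round spermatids without a call for either. miR-23a-3p was 167, 214, 318 and 226 CPM in Ago413+/+ and 330, 273, 204 and 326 CPM in Ago413-/- (log2 fold change 0.45, SE 0.25, edgeR adjusted p = 0.205). miR-23b-3p was 774, 636, 1416 and 840 CPM in Ago413+/+ and 579, 674, 480 and 716 CPM in Ago413-/- (log2 fold change -0.41, SE 0.25, edgeR adjusted p = 0.241). The libraries of both overlapped between genotypes, and single libraries moved both values. miR-23a-3p ranged from 0.095, without Ago413+/+ replicate 1, to 0.58, and miR-23b-3p from -0.75, without Ago413+/+ replicate 2, to -0.20, without Ago413+/+ replicate 3. miR-24-2-5p, the passenger arm of the chromosome 8 copy of miR-24, had 18, 32, 3 and 26 counts in Ago413+/+ and 37, 6, 37 and 21 counts in Ago413-/- (log2 fold change 0.77, SE 0.42, edgeR adjusted p = 0.201), and 0.47 without Ago413-/- replicate 1.

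**Figure D2:**
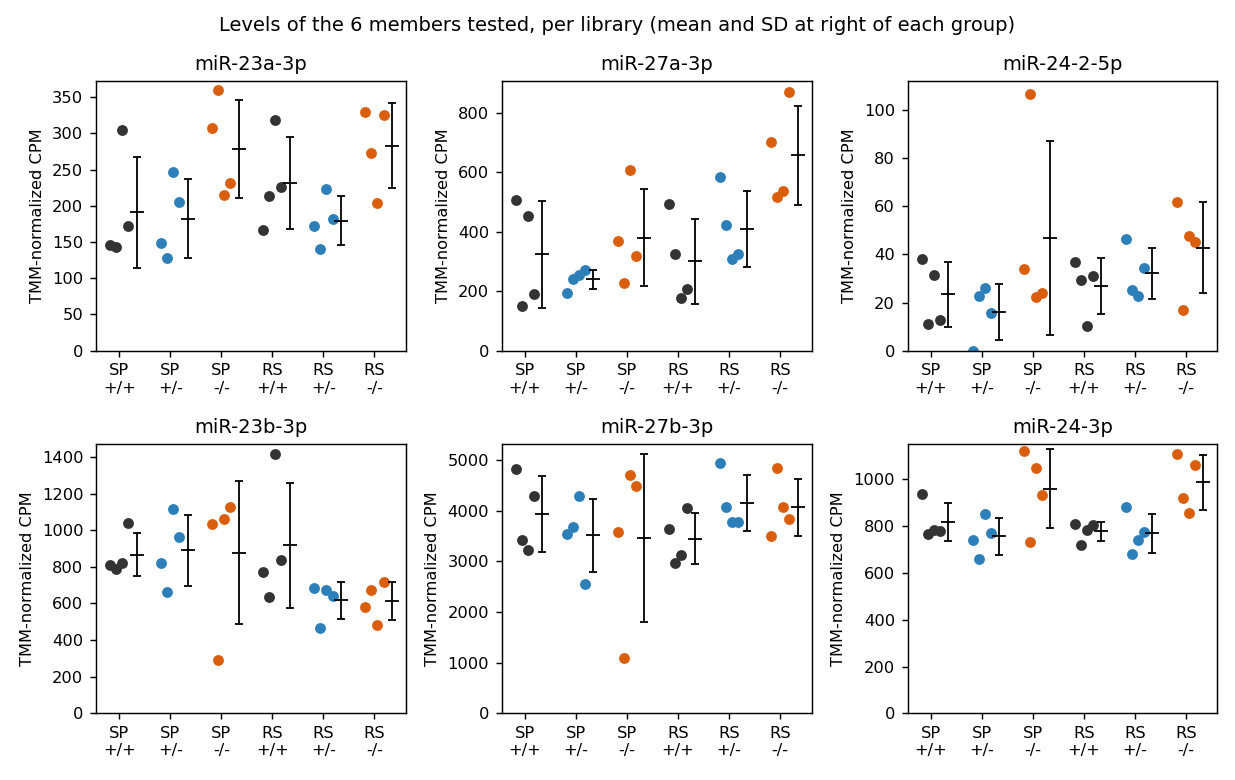
TMM-normalized CPM of the 6 members tested, with 1 point per library for each cell type (SP, RS) and Ago413 genotype, and a bar for the mean and SD of 4 libraries. In the miR-27a-3p panel the 4 RS -/- points, 518 to 871 CPM, lie above the 4 RS +/+ points, 176 to 493 CPM.

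miRNAs of other testis cells moved in the same comparison. The endothelial miRNAs miR-126a-3p and miR-126a-5p, both of the 2 on the list, summed to 511 to 1990 CPM in RS Ago413+/+ and to 1951 to 5858 CPM in RS Ago413-/-, and miR-126a-3p was called (log2 fold change 1.63, edgeR adjusted p = 0.0120). The blood miRNAs miR-223-3p, miR-451a, miR-486a-5p and miR-144-3p summed to 192, 108, 501 and 51.6 CPM in RS Ago413+/+. In RS Ago413-/- they summed to 519, 123, 629 and 4845 CPM, where 4845 belongs to replicate 4 alone. All 3 that were tested were called, with log2 fold changes of 3.26 for miR-451a, 2.11 for miR-486a-5p and 2.65 for miR-223-3p. The peritubular and smooth muscle miRNAs miR-143-3p and miR-145a-5p ranged from 1060 to 8555 CPM and from 2031 to 3444 CPM, with neither called. The germ cell miRNAs ranged from 59253 to 108408 CPM and from 70397 to 133847 CPM, with none of 3 called, although miR-449a-5p had a log2 fold change of 0.98 (edgeR adjusted p = 0.0110), just below the fold needed. All 11 of these markers had counts in both groups. The part of these cells in the level of miR-27a-3p was not tested.

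In spermatocytes none of the 6 members was called between Ago413-/- and Ago413+/+ by edgeR or by DESeq2, and none had an unadjusted p under 0.05 with edgeR, against 4.46% of the 404 miRNAs called and 25.5% with an unadjusted p under 0.05. miR-27a-3p was 507, 151, 452 and 191 CPM in Ago413+/+ and 370, 227, 608 and 318 CPM in Ago413-/-. The Ago413+/+ libraries alone spanned 151 to 507 CPM of the 151 to 608 CPM seen over both groups (log2 fold change 0.20, SE 0.41, edgeR adjusted p = 0.768). The log2 fold changes of the other members were 0.54 for miR-23a-3p (SE 0.36), 0.0049 for miR-23b-3p (SE 0.37), -0.21 for miR-27b-3p (SE 0.38), 0.22 for miR-24-3p (SE 0.28) and 0.88 for miR-24-2-5p (SE 0.70). Their edgeR adjusted p-values ran from 0.391 to 0.995.

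Replicate 2 of SP Ago413-/- lay far from the other 3 libraries of its group. It held 293 CPM of miR-23b-3p where the others held 1031, 1060 and 1126, and 1093 CPM of miR-27b-3p where they held 3570, 4708 and 4486. Its miR-24-2-5p level was 107 CPM against 22.2 to 33.9 in the others, from 16 counts. Without it the log2 fold change was 0.18 for miR-24-2-5p, 0.38 for miR-23a-3p, 0.33 for miR-24-3p, 0.40 for miR-27a-3p and 0.29 for miR-23b-3p, and changed sign to 0.093 for miR-27b-3p. No member was called. Other single libraries also moved these values, and with each of the 8 left out in turn miR-24-2-5p ranged from 0.18 to 1.12, miR-23a-3p from 0.32 to 0.89 and miR-24-3p from 0.049, without Ago413-/- replicate 1, to 0.33.

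**Figure D3:**
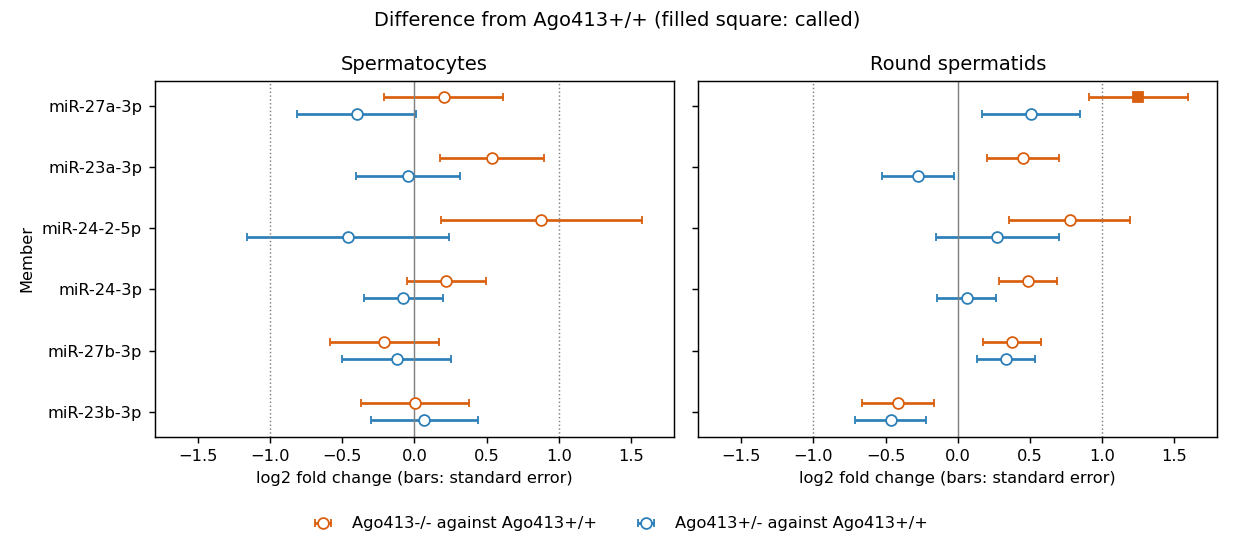
Log2 fold change of each tested member from Ago413+/+ in spermatocytes (left) and round spermatids (right), for Ago413-/- and Ago413+/-, with bars for the standard error and dotted lines at -1 and 1. The filled square for miR-27a-3p in round spermatids, at 1.25, is the only value called.

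One copy of the deletion gave no call. Between Ago413+/- and Ago413+/+ no member and no miRNA at all was called, 0% of 404 in spermatocytes and 0% of 426 in round spermatids, by edgeR, with none of the members called by DESeq2. Without adjustment 13 miRNAs in spermatocytes (3.22%) and 68 in round spermatids (16%) had a p under 0.05, with no member among them. These comparisons share the Ago413+/+ libraries with those above. miR-27a-3p was 584, 422, 309 and 324 CPM in RS Ago413+/-, between the other genotypes on average (log2 fold change from Ago413+/+ 0.51, SE 0.34, edgeR adjusted p = 0.478), and its libraries overlapped with both. The other members had RS log2 fold changes from -0.47 for miR-23b-3p to 0.34 for miR-27b-3p.

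Set against Ago413+/- instead, RS Ago413-/- gave no called member, against 12.4% of all miRNAs. The log2 fold changes were 0.74 for miR-27a-3p (SE 0.34, edgeR adjusted p = 0.134) and 0.73 for miR-23a-3p (SE 0.25, edgeR adjusted p = 0.0510). These 2 of the 6 members had an unadjusted p under 0.05 (0.0426 and 0.0102), against 33.8% of all miRNAs, and DESeq2 called no member either. In spermatocytes 2.23% of miRNAs were called in this comparison, with no member among them.

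No member was called between the cell types in any genotype. Between round spermatids and spermatocytes of Ago413+/+ 0% of the 450 miRNAs were called (2.22% had an unadjusted p under 0.05, with no member among them), and the members' log2 fold changes ran from -0.19 for miR-27b-3p to 0.26 for miR-23a-3p. In Ago413+/- 0% were called (3.33% of miRNAs, and no member, had an unadjusted p under 0.05) and miR-27a-3p had no overlap, against 2.89% of all miRNAs, at 193, 241, 254 and 270.5 CPM in SP Ago413+/- and 584, 422, 309 and 324 CPM in RS (log2 fold change 0.77, SE 0.39, edgeR adjusted p = 0.988). In Ago413-/- 4.89% of miRNAs were called with no member among them, and miR-27a-3p had a log2 fold change of 0.78 (SE 0.39, edgeR adjusted p = 0.190). DESeq2 called no member in these comparisons either.

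The call for miR-27a-3p in round spermatids and its absence in spermatocytes do not show a difference between the cell types. The test of that difference, the interaction of cell type and genotype, gave a log2 value of 0.89 for miR-27a-3p (SE 0.55, 95% interval -0.23 to 2.02, edgeR adjusted p = 0.416), and 0% of all 450 miRNAs passed it. No member had an unadjusted p under 0.05 or passed with DESeq2. The main fits across cell types treated the libraries as unpaired.

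Ratios within a library do not depend on the scaling, and they show how the chromosome 8 and chromosome 13 copies stood to each other. The ratio of miR-23a-3p to miR-23b-3p was 0.216, 0.336, 0.225 and 0.269 in RS Ago413+/+, 0.250, 0.300, 0.331 and 0.284 in RS Ago413+/- and 0.569, 0.405, 0.425 and 0.455 in RS Ago413-/-. All 4 Ago413-/- ratios exceeded the others. The difference from Ago413+/+ was 0.83 on the log2 scale with an exact two-sided permutation p of 0.0286, the smallest that 4 libraries against 4 allow, and 0.514 after adjustment over the 18 ratio comparisons made. The ratio of miR-27a-3p to miR-27b-3p was 0.135, 0.109, 0.0565 and 0.0512 in RS Ago413+/+ and 0.200, 0.107, 0.131 and 0.227 in RS Ago413-/-. These overlapped, with a log2 difference of 0.97 (exact permutation p = 0.143, adjusted 0.729).

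In spermatocytes the ratio of miR-23a-3p to miR-23b-3p was 0.18, 0.181, 0.369 and 0.165 in Ago413+/+ and 0.298, 1.23, 0.203 and 0.205 in Ago413-/-, where 1.23 belongs to replicate 2. The log2 difference was 0.73 (exact permutation p = 0.343) and 0.13 without that library. miR-27a-3p to miR-27b-3p differed by 0.70 on the log2 scale (exact permutation p = 0.257) and by 0.42 without that library. None of the 18 ratio comparisons passed the adjustment. A ratio that separated alone could not have passed it, because the smallest exact permutation p possible was 0.0286.

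**Figure D4:**
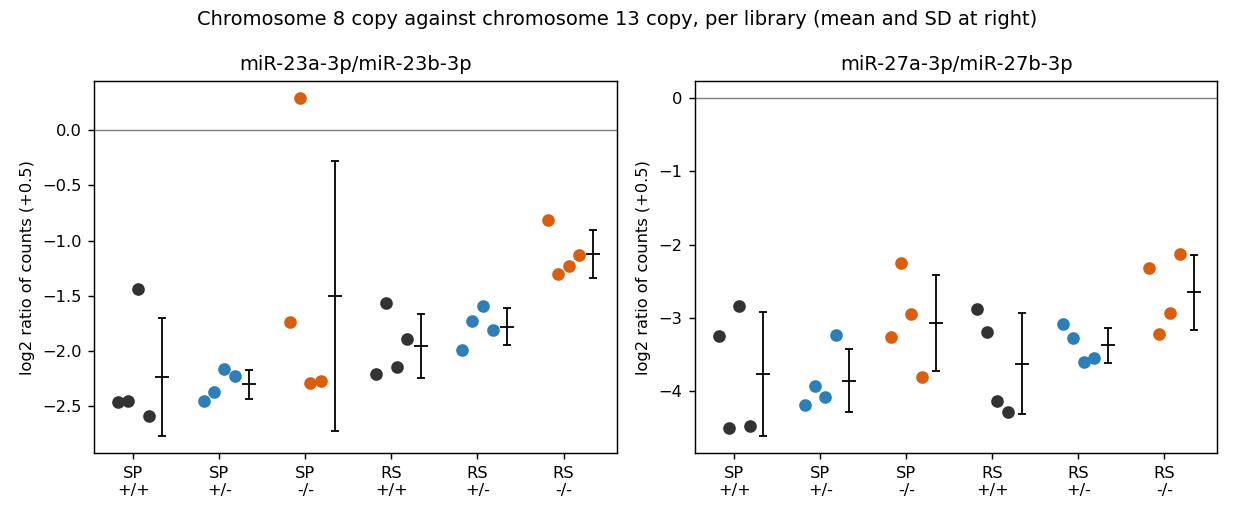
Log2 ratio of the chromosome 8 copy to the chromosome 13 copy of miR-23-3p (left) and miR-27-3p (right), with 1 point per library for each cell type and Ago413 genotype, and a bar for the mean and SD. All points but 1, SP -/- replicate 2 in the left panel, lie below 0, the level at which the copies would be equal, and the RS -/- points of the left panel lie above the other RS points.

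The -5p arms were sparse in every group. miR-27a-5p had 0 to 10 counts per library and 114 in all, against 4901 for miR-27a-3p, and miR-27b-5p had 2 to 11 and 119 in all, against 47363 for miR-27b-3p. miR-24-1-5p had 1 to 14 and 138 in all, and miR-24-2-5p had 0 to 37 and 390 in all, so that the chromosome 8 copy had the larger sum of the 2 arms that tell the miR-24 copies apart. In single libraries the ratio of miR-24-2-5p to miR-24-1-5p ran from 0 to 7, and the 3 group comparisons of it made had exact permutation p-values of 0.429 to 0.914. The -5p arm of Mir23a, miR-23a-5p, had 1 count in all 24 libraries, and miR-23b-5p had 25, with at most 7 in a library. The 0 counts of miR-27a-5p in SP Ago413-/- replicate 2 and of miR-24-2-5p in SP Ago413+/- replicate 1 allow up to 3 counts, or 16.4 and 9.83 CPM before TMM scaling. Such limits and the sampling noise take in counting error alone, because PCR copies of 1 molecule were not marked.

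The pairs of guide arms differed in how constant their ratio was. The SD of the log2 ratio over the 24 libraries was 0.39 for miR-23a-3p to miR-24-3p, 0.42 for miR-27b-3p to miR-24-3p and 0.48 for miR-23b-3p to miR-27b-3p, both of chromosome 13. For miR-23a-3p to miR-27a-3p, both of chromosome 8, it was 0.73. For pairs of different clusters it was 0.66 for miR-23a-3p to miR-23b-3p, 0.68 for miR-27a-3p to miR-27b-3p, 0.74 for miR-23a-3p to miR-27b-3p and 0.93 for miR-23b-3p to miR-27a-3p, so the chromosome 8 pair lay within their range. These are descriptions over libraries that share their depth. Without SP Ago413-/- replicate 2, an alternative chosen after seeing the data, the value for miR-27b-3p to miR-24-3p was 0.26. The chromosome 13 pair then had 0.48 and the chromosome 8 pair 0.69. In the order above, the pairs of different clusters had 0.49, 0.65, 0.52 and 0.93. The chromosome 13 pair thus lay close to miR-23a-3p to miR-23b-3p.

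The 5 tested miRNAs with the most constant ratio to the summed count of the 5 guide arms were miR-21a-5p (SD of the log2 ratio 0.25), miR-467a-5p (0.26), miR-30c-5p (0.26), miR-191-5p (0.27) and miR-467b-5p (0.27), of 443 miRNAs ranked with a median of 0.78. Without SP Ago413-/- replicate 2 the first 5 were miR-192-5p, miR-146b-5p, miR-191-5p, miR-30c-5p and miR-467b-5p. Of the first 5, miR-21a-5p had a log2 fold change of 0.66 between RS Ago413-/- and RS Ago413+/+ (edgeR adjusted p = 0.0306), below the fold needed for a call.

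The counts of the near-identical copies had a feature of their own. miR-23a-3p and miR-23b-3p each had an even count in 21 of the 24 libraries, miR-27a-3p in 19, miR-27b-3p in 17 and miR-24-3p in 15, where the median was 13 over the 232 miRNAs that reached 20 counts in 20 or more libraries. Of these miRNAs, 10 of the 88 that share their number and arm with another had an even count in 20 or more libraries, against 3 of all the others. How the counting treats reads that match both copies is not given in the sources used here, and its part in the levels of the copies was not tested, so the division of miR-23-3p and of miR-27-3p between the copies is uncertain.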

How the data were processed

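Raw counts of 1978 mature mouse miRNAs in 24 libraries were deposited by the authors, who prepared them from total RNA with a NEBNext small RNA kit, trimmed reads with TrimGalore and counted them on miRBase 22.1 with the quantifier of miRDeep2, according to the study's methods. The count values were not normalized. Groups and replicates were taken from the labels. Spermatocyte and round spermatid libraries with the same genotype and replicate had consecutive numbers in the labels, such as 30 and 29. Replicate 2 of Ago413+/+ was the exception, with 36 in spermatocytes and 41 in round spermatids. Whether such libraries came from the same preparation is not stated. TMM scaling and the quasi-likelihood test of edgeR 4.0.16 were run in R 4.3.3. A miRNA entered a fit when 3 or more of its libraries held 10 counts, which left 404 miRNAs for spermatocytes, 426 for round spermatids and 450 for the fit of both cell types. The 3 genotypes of a cell type were fitted together without covariates. Adjusted p-values are Benjamini-Hochberg over all miRNAs of a fit. DESeq2 1.42.0 was an alternative. Ratios were log2((count + 0.5)/(count + 0.5)) and were compared by exact two-sided permutation of the difference in means, 18 comparisons in all. The edgeR comparison of Ago413-/- with Ago413+/+ in round spermatids was tried on simulated counts.

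The members, marker lists and tests were chosen with earlier results of these data known. The miRNAs named are the 9 members, the other arms of their hairpins, miRNAs with the same seed, the 5 with the most constant ratio to the summed guide arms, and markers of blood, peritubular cells, endothelium and germ cells. Sequences are from RefSeq for GRCm38.p6, with 1679 of 1978 miRNAs matched by name.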

Additional observations from a re-analysis of the deposited data

Results flagged for a closer look

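In 78 groups of 4 libraries, levels and ratios of the members were searched for a library with a gap to its nearest neighbour above 0.829 of the group's range (Dixon's test). Chance gives about 1 in 20, or 3.9 of 78, for independent and normally distributed values, and 9 were found. These groups share members and libraries and include ratios of very low counts, so the 9 cannot be read as an excess over chance.

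In SP Ago413-/- replicate 2, the smallest library, miR-23b-3p was 293 CPM (others 1031 to 1126), miR-24-2-5p was 107 CPM (others 22.2 to 33.9), and the log2 ratio of miR-24-2-5p to miR-24-3p was -2.74 (others -5.45 to -4.99).

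In SP Ago413+/+, miR-23b-3p was 1042 CPM in replicate 4 (others 787 to 824), miR-24-3p was 937 CPM in replicate 1 (others 768 to 784), and the log2 ratio of miR-23a-3p to miR-23b-3p was -1.44 in replicate 3 (others -2.59 to -2.46). The log2 ratio of miR-24-2-5p to miR-24-3p was -8.97 in SP Ago413+/- replicate 1 (others -5.50 to -4.81), where miR-24-2-5p had 0 counts, and -6.05 in RS Ago413+/+ replicate 3 (others -4.66 to -4.42). The log2 ratio of miR-27a-5p to miR-27a-3p was -6.85 in RS Ago413-/- replicate 4 (others -5.45 to -5.33). The cause of these gaps was not tested.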

How the results depend on the processing

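Of 400 recomputed log2 fold changes of members, 376 kept their direction and side of the threshold, 4 lost the call and 20 turned in sign, and 202 of 207 counts of called members stayed the same. In round spermatids, Ago413-/- against Ago413+/+, the number of members called fell from 1 to 0 with library totals and with families by name, and ranged from 0 to 1 when single libraries were left out (0 without Ago413+/+ replicate 4, Ago413-/- replicate 1 or Ago413-/- replicate 4). miR-27a-3p had a log2 fold change of 1.05 with library totals, and 0.98 to 1.36 with single libraries left out. Fitted with only the groups compared, miR-27a-3p was 1.04 (edgeR adjusted p = 0.0482). In that fit miR-24-3p was 0.27, miR-27b-3p 0.16, miR-23a-3p 0.22, miR-23b-3p -0.64 and miR-24-2-5p 0.57. Every member tested was lower than in the main fit, as with library totals. The cause was not tested. The split of all calls in that comparison was 32 higher and 37 lower with TMM, 27 and 42 with RLE scaling and 16 and 52 with library totals, which moved the median of all miRNAs by -0.23 (-0.19 in spermatocytes).

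In spermatocytes the change of miR-23b-3p between Ago413-/- and Ago413+/+, 0.0049, was -0.026 with DESeq2, -0.030 with RLE scaling, -0.17 with library totals, -0.087 without a filter, -0.15 with 10 counts in every library, -0.017 with a library number term and -0.11 with the replicate block, and -0.19 to 0.29 with single libraries left out. miR-27a-3p was -0.012 with library totals and -0.089 to 0.43 with single libraries left out, and miR-27b-3p was -0.40 to 0.093. Between cell types in Ago413+/+, miR-27a-3p ranged from -0.46 to 0.19 with single libraries left out.

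Beside 166 ratio differences that kept their sign, 14 turned in sign, all with a library left out, none of them past the threshold. In spermatocytes, Ago413-/- against Ago413+/+, miR-27a-5p to miR-27a-3p ranged from -0.27 to 0.47 and miR-24-2-5p to miR-24-1-5p from -0.36 to 0.59. Between cell types in Ago413+/+, miR-27a-3p to miR-27b-3p ranged from -0.10 to 0.45, miR-24-2-5p to miR-24-1-5p from -0.35 to 0.69 and miR-27a-5p to miR-27a-3p from -0.14 to 0.69. In round spermatids miR-24-2-5p to miR-24-3p ranged from -0.061 to 0.66.

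Without the 25 most abundant miRNAs the members held 2.18% of counts in SP Ago413+/+, 1.95% in SP Ago413+/-, 1.98% in SP Ago413-/-, 1.91% in RS Ago413+/+, 2.14% in RS Ago413+/- and 2.07% in RS Ago413-/-, since the denominator shrinks. Libraries of the same replicate number had correlations of deviations between -0.44 and 0.47 over the 9 comparisons. Between cell types, replicates 1 to 4 had 0.35, 0.40, -0.15 and 0.35 in Ago413+/+. They had 0.022, 0.43, 0.016 and 0.25 in Ago413+/-, and 0.29, -0.073, -0.15 and 0.12 in Ago413-/-. The same number gave the highest correlation in replicates 1, 2 and 4 of Ago413+/+, 2 and 4 of Ago413+/- and 1 of Ago413-/-. Pairing of the cell types was not settled. The main fits left it out, and the replicate block does not test it. That block changed no count of called members. miR-27a-3p in round spermatids was 1.37 with the block (edgeR adjusted p = 0.0119) and 1.43 with the GC offset added (edgeR adjusted p = 0.00435). The smallest library, of 182904 counts, limits the -5p arms most.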
